A study of Mus musculus with 19 samples.

Results

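The 10 kb bin of mouse chromosome 5 that starts at 29700001 (to 29710000, mm9 build) was followed as the viewpoint for the promoter of Lmbr1 in capture Hi-C maps of the Shh locus. It was chosen by its position and is 1 of the 280 bins from 27800001 to 30600000. Its 2 neighbours, the bin 29690001 to 29700000 on the side of Shh and the bin 29710001 to 29720000 on the side of Nom1 and Mnx1, were read with it. The other 279 bins were its partners. Gene order was read from RefSeq's GRCm38.p6 table, a later build, and runs Shh, Rnf32, Lmbr1, Nom1, Mnx1, Ube3c and Dnajb6, so only the bins named by the labels or by the choice of the viewpoint carry a gene name here.

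Lmbr1 encodes a multi-pass membrane protein and is best known for what lies inside it. One of its introns holds the ZRS, the limb enhancer of Shh, and Shh encodes the secreted signal that sets digit number and identity in the limb bud. The genome is folded into domains in which DNA meets itself more often than it meets its surroundings. Their borders are often bound by CTCF, a DNA-binding protein at which loops stop, and often lie near active promoters. The promoter of Lmbr1 is near the border of the Shh domain that faces Nom1, a nucleolar protein gene, and Mnx1, a homeobox gene of motor neurons and pancreas.

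In capture Hi-C, DNA ends that lie close in fixed nuclei are ligated, enriched for one region and sequenced as pairs. The 19 samples fall into 9 groups, and each group was deposited as 1 merged map. The mutant limb buds carry a deletion of the CTCF sites i4 and i5 (i4i5), of these and the CTCF site called ZRS (i4i5ZRS), of i4 and i5 together with the element ZRSreg (i4i5ZRSreg), of ZRSreg alone, or of the Lmbr1 promoter on both alleles (Lmbr1 promoter deletion). The other groups are midbrain with the i4i5ZRS deletion and, without engineered deletions (wild type), midbrain, embryonic stem (ES) cells and limb buds. Tissue came from E10.5 embryos. Wild type limb buds have 3 samples, of which 2 share a library number, and every other group has 2. All mutants and the ES cells are of strain G4, a hybrid mouse ES cell line, whereas wild type limb and midbrain are C57BL/6, so strain and genotype cannot be told apart in any comparison of a mutant with wild type, nor strain and cell type between ES cells and wild type limb. Per the series design, mutant samples are technical replicates and wild type samples biological ones. The sources used here give neither the number of embryos nor the exact ends of the deletions. No RNA was measured, so the tissue labels were not checked with marker genes.

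The sequence of the annotated promoter is shown because the viewpoint is named for it and 1 mutant lacks the element. RefSeq places it on GRCm38.p6 at chr5:29378341-29378640 on the minus strand, from 250 bases before the annotated start of Lmbr1 to 50 bases after it. Capitals mark the 3 matches to the GC box GGGCGG, all on the reverse strand and therefore written CCGCCC, which begin 133, 19 and 1 bases before the start.
Lmbr1 promoter: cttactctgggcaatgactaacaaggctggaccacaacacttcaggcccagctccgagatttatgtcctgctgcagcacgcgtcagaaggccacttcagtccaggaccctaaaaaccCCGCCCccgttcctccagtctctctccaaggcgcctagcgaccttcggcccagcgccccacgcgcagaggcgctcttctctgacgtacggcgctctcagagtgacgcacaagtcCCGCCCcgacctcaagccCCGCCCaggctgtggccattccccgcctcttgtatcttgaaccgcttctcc
GC boxes are bound by Sp1-family factors in many broadly active promoters. In these letters the promoter had 62% G and C and 21 CpG dinucleotides, against medians of 52.7% and 7 over the 32851 mouse promoters of the same length, of which 75.2% had fewer CpG. GGGCGG on either strand is held by 35.7% of those promoters. CCAAT (37.4% of promoters), CCGGAAG (8.86%), TATAAA (13.6%) and the CTCF core motif (0.557%), each searched on both strands, had no match in this window. These matches describe letters and no binding was measured, and the sources used here do not say whether the deletion covers this window.

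Total contacts per map, recovered from the balanced signal, ran from 1177173 in limb i4i5 to 3218492 in ES cells, and limb i4i5 was the shallowest map. The Lmbr1 bin itself had 4943 contacts in limb i4i5 and 8568 to 11794 in the other maps. Balancing gives every bin of a map the same total, so a bin with more signal on one side has less elsewhere. Contact is expressed as observed over expected. The balanced signal of a bin pair was divided by that map's mean over all pairs equally far apart, so 1 is the average of the map. Parentheses hold 95% counting intervals. They describe the sampling of read pairs within a merged map, say nothing of spread between embryos or libraries, and allow no p-value.

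The Lmbr1 bin made little contact with the nearest stretch of the Shh domain in all 3 wild type maps, and more with the Nom1 and Mnx1 side. The bin had high contact at the far end of the Shh domain and just beyond it. From 20 to 90 kb towards Shh, which includes the ZRS window, its contact was 0.643 (0.590 to 0.698) in midbrain, 0.714 (0.666 to 0.764) in ES cells and 0.692 (0.645 to 0.740) in limb. From 340 to 410 kb towards Shh it was 0.737 in midbrain, 0.586 in ES cells and 0.695 in limb. All of these lie under the map average, and so did every step up to 500 kb. From 810 to 890 kb it reached 2.07 in midbrain, 1.59 in ES cells and 1.69 in limb, and from 900 to 950 kb, where Shh and the lower border of its domain lie, 3.54 in midbrain, 3.77 in ES cells and 3.45 in limb. The single highest bin towards Shh was 940 kb away in midbrain (5.23, 16 contacts), 1170 kb away in ES cells (28530001 to 28540000, 5.35, 35 contacts), which is beyond the lower border, and 920 kb away in limb (5.25, 67 contacts).

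On the other side the profile had another shape, a low start and then a broad plateau. From 20 to 90 kb towards Nom1 and Mnx1 contact was 0.833 in midbrain, 0.998 in ES cells and 0.863 in limb. Over the 22 bins from 180 to 390 kb, a plateau delimited after the values were seen, it was 1.43 (1.34 to 1.53) in midbrain, 1.34 (1.26 to 1.43) in ES cells and 1.63 (1.55 to 1.72) in limb. The bin with the highest contact 50 to 890 kb away on this side lay 700 kb away in midbrain (2.19, 10 contacts), and 730 kb away both in ES cells (2.41, 24 contacts) and in limb (2.63, 41 contacts). These single bins rest on few contacts and their intervals are wide, 1.05 to 4.03, 1.54 to 3.59 and 1.89 to 3.57. Towards Shh the highest bin within the same distances was 890 kb away in midbrain (3.81, 17 contacts) and in limb (2.57, 17 contacts), and 780 kb away in ES cells (3.44, 31 contacts).

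**Figure D1:**
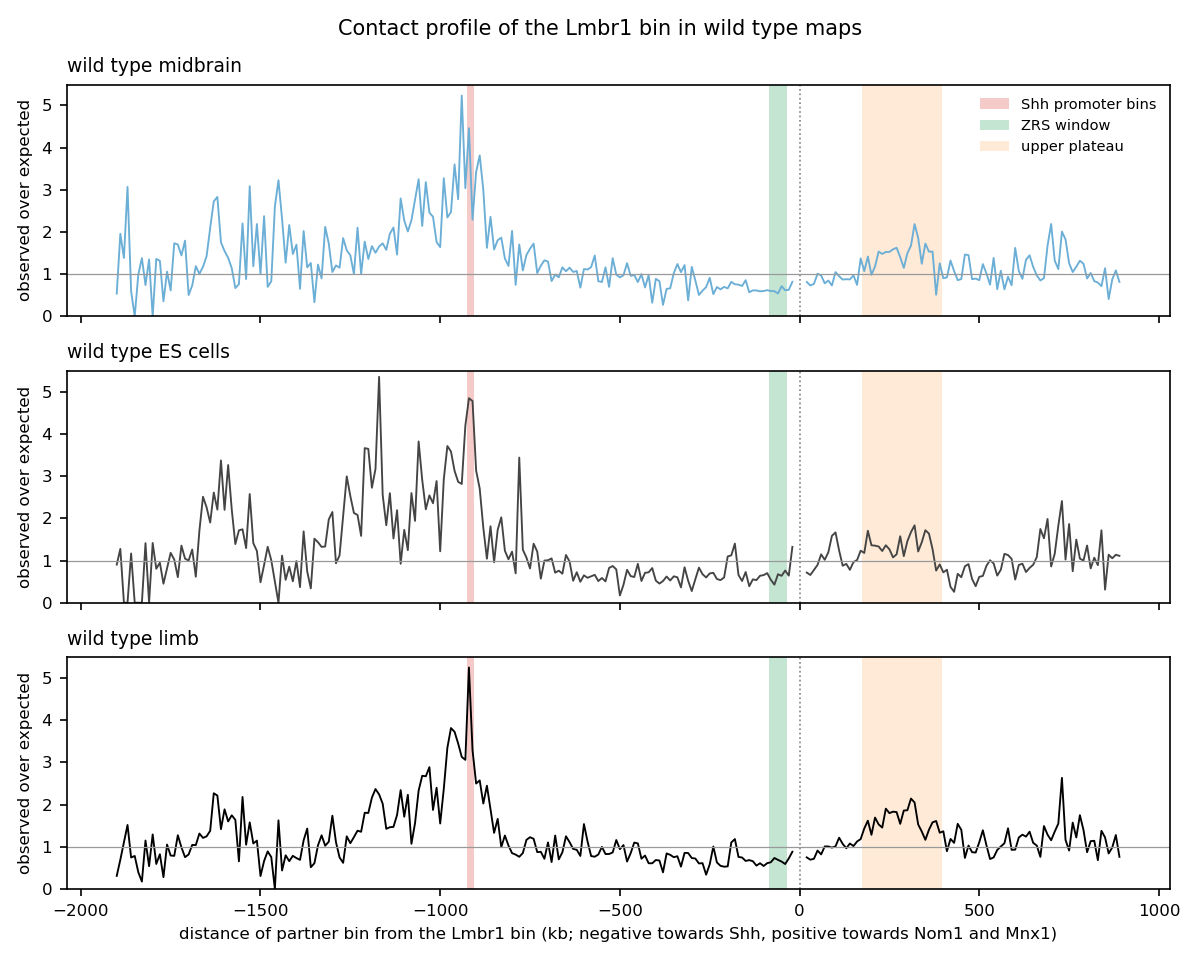
Observed over expected contact (y axis) of the Lmbr1 bin with every bin at 20 kb or more (x axis, distance in kb, negative towards Shh) in wild type midbrain, ES cells and limb. Shaded are the Shh promoter bins, the ZRS window and the upper plateau; contact is mostly under 1 within 500 kb on the Shh side and high around the Shh promoter, at 3.37, 4.81 and 4.27 in the 3 maps from top to bottom.

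Set at matched separations of 20 to 500 kb, the side towards Shh had less contact than the side towards Nom1 and Mnx1 in 8 of the 9 maps. The side ratio, the log2 of the mean contact towards Shh over that towards Nom1 and Mnx1, was -0.38 for limb i4i5, -0.29 for i4i5ZRS, -0.37 for i4i5ZRSreg, -0.90 for ZRSreg and -0.47 in the Lmbr1 promoter deletion. It was -0.00 in midbrain i4i5ZRS, -0.63 in wild type midbrain, -0.73 in ES cells and -0.84 in wild type limb. The sides of midbrain i4i5ZRS, at 1.046 towards Shh and 1.048 towards Nom1 and Mnx1, differed by less than the counting error at these settings. Its ratio was 0.16 without balancing, -0.29 at 50 to 300 kb and -0.09 with both neighbours, so it has no settled sign. Limb ZRSreg and wild type limb had the lowest ratios. In wild type limb the means were 0.725 and 1.297, and the Shh side was higher at only 4 of 49 separations.

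In the wild type maps the imbalance was largest at the middle distances. From 110 to 500 kb the side ratio was -0.66 (-0.80 to -0.53) in wild type midbrain, -0.76 (-0.89 to -0.63) in ES cells and -0.92 (-1.03 to -0.81) in wild type limb. From 510 to 890 kb it was 0.30 (0.10 to 0.49) in wild type midbrain, -0.06 (-0.27 to 0.15) in ES cells and -0.07 (-0.24 to 0.10) in wild type limb, so the difference between the sides was within counting error or turned towards Shh. At 20 to 100 kb it was -0.43, -0.60 and -0.38 in these 3 maps.

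Across the 3 bins around the promoter the side ratio changed steeply. The neighbour towards Shh had -0.31 in limb ZRSreg, -0.17 in the Lmbr1 promoter deletion, -0.19 in wild type midbrain, -0.33 in ES cells and -0.28 in wild type limb. The neighbour towards Nom1 had -1.54, -1.05, -1.19, -1.37 and -1.48 in the same maps, in that order. Without i4 and i5 the neighbour towards Shh had -0.12 in limb i4i5, 0.05 in i4i5ZRS, 0.09 in i4i5ZRSreg and 0.33 in midbrain i4i5ZRS. In these maps the neighbour towards Nom1 had -0.80, -0.87, -0.75 and -0.58, in that order. In wild type limb and in limb ZRSreg this neighbour was the most one-sided of the 180 bins with full windows, whereas 27 bins of wild type limb were lower than the Lmbr1 bin itself. The step from one neighbour to the other, -1.20 in wild type limb, was the steepest of the same kind at 178 bins in limb i4i5ZRS, limb ZRSreg, the Lmbr1 promoter deletion, wild type midbrain and wild type limb. In limb i4i5 3 bins, in ES cells 2, and in limb i4i5ZRSreg and midbrain i4i5ZRS 1 bin had a steeper step. This step was looked at after the data were seen and serves as a description.

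**Figure D2:**
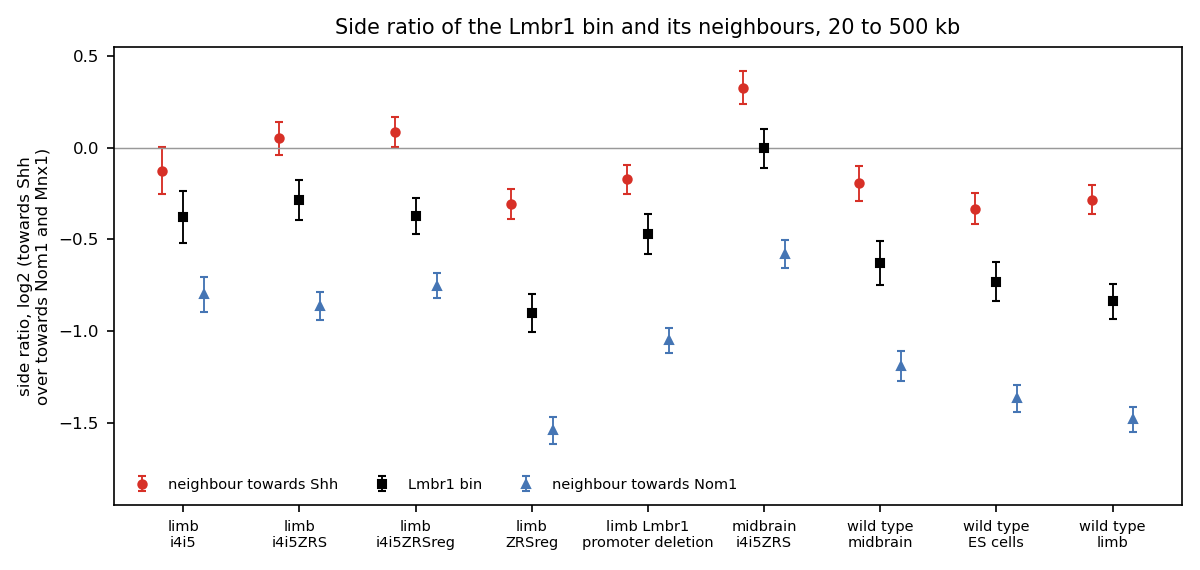
Side ratio at 20 to 500 kb (y axis, log2, negative where contact is lower towards Shh) of the Lmbr1 bin (squares), its neighbour towards Shh (circles) and its neighbour towards Nom1 (triangles) in the 9 maps (x axis), with 95% counting intervals. In every map the ratio falls from circle to square to triangle; the square is at -0.00 in midbrain i4i5ZRS, where its sign depends on the setting, and -0.84 in wild type limb.

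The Shh promoter, 910 to 920 kb away, was well above the map average as a partner in every map. Its contact, the mean of the bins 28780001 to 28800000, was 5.04 (3.93 to 6.38, 73 contacts) with the i4i5 deletion in limb, 6.34 (5.31 to 7.52, 137 contacts) with i4i5ZRS and 5.09 (4.32 to 5.96, 161 contacts) with i4i5ZRSreg. It was 4.13 (3.39 to 5.00, 108 contacts) in limb ZRSreg and 3.50 (2.82 to 4.29, 95 contacts) in the Lmbr1 promoter deletion. Both these limb maps overlap wild type limb in their intervals, and limb i4i5ZRS is the one limb mutant whose interval does not. Midbrain i4i5ZRS had 7.15 (6.05 to 8.40, 155 contacts), wild type midbrain 3.37 (2.62 to 4.28, 71 contacts), ES cells 4.81 (3.85 to 5.94, 88 contacts) and wild type limb 4.27 (3.56 to 5.08, 135 contacts). Midbrain i4i5ZRS had the highest value of the 9 maps, with an interval that overlaps that of limb i4i5ZRS. The lower border bin, 940 kb away, rested on 6 to 16 contacts per map, and its values of 2.55 to 5.23 cannot be ordered.

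The ZRS window, the 5 bins 40 to 80 kb from the viewpoint on the Shh side, was a weak partner of the Lmbr1 bin in every map. It was placed from general knowledge of the distance between the ZRS and Shh. Contact with it was 0.852 (0.737 to 0.980) for limb i4i5, 0.857 (0.772 to 0.9498) for i4i5ZRS, 0.679 (0.608 to 0.755) for i4i5ZRSreg, 0.658 (0.592 to 0.730) for ZRSreg and 0.673 (0.607 to 0.744) in the Lmbr1 promoter deletion. Midbrain i4i5ZRS had 0.741 (0.665 to 0.824), wild type midbrain 0.614 (0.543 to 0.691), ES cells 0.609 (0.547 to 0.677) and wild type limb 0.662 (0.599 to 0.729). Every value and interval lies under the map average, and the maps with the i4i5 and i4i5ZRS deletions are the highest 3. Low contact was not particular to this window. The whole step of 20 to 90 kb towards Shh was also under 1 in every map, with 0.643 in wild type midbrain, 0.714 in ES cells and 0.692 in wild type limb. The bin 100 kb from the viewpoint on the Shh side was taken beforehand as the peak of the Shh promoter's contact profile, which is not shown here. It had 1.02 (0.816 to 1.26) in limb i4i5ZRS, its highest value, and 0.547 (0.427 to 0.690) in wild type limb, its lowest.

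**Figure D3:**
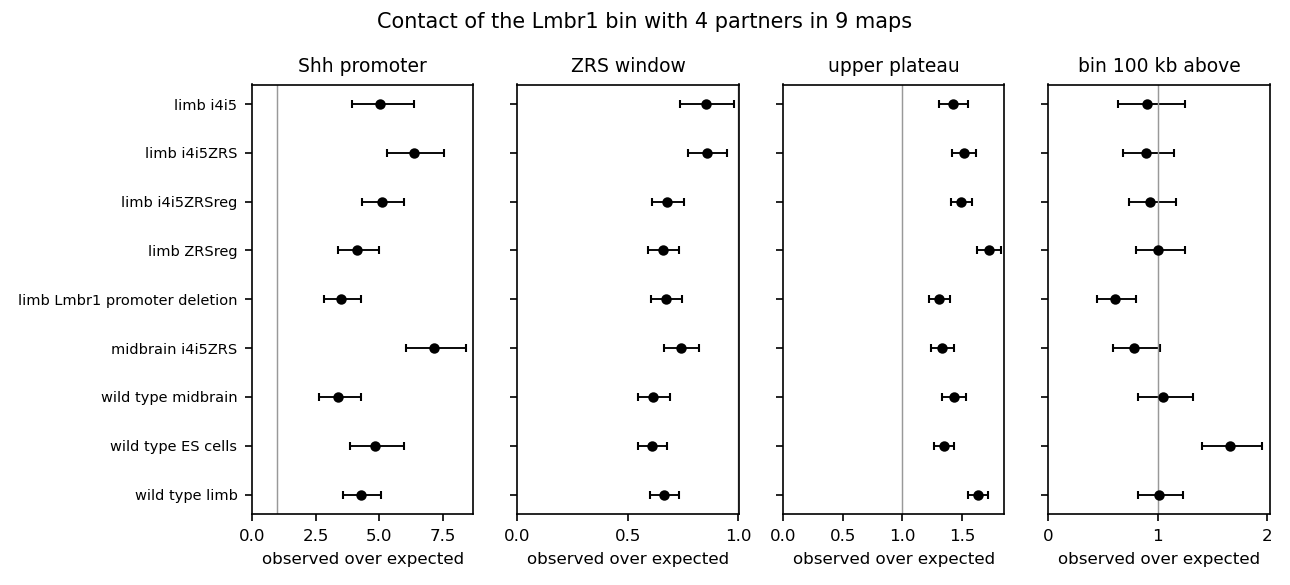
Observed over expected contact (x axes, each from 0) of the Lmbr1 bin with the Shh promoter, the ZRS window, the upper plateau and the bin 100 kb away towards Nom1 in the 9 maps (rows), with 95% counting intervals; the vertical line marks 1. The Shh promoter is above 1 and the ZRS window below 1 in every map, and ES cells stand apart at the bin 100 kb above, at 1.67.

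Wild type midbrain and ES cells were each set against wild type limb, which asks whether the border contacts of Lmbr1 differ between tissues. Wild type midbrain had less contact with the upper plateau, 1.43 against 1.63 in wild type limb (log2 ratio -0.19, -0.31 to -0.06, lower at 16 of the 22 bins). The plateau was delimited after these values were seen, so its differences between maps serve as a description. At 20 to 500 kb towards Nom1 and Mnx1 midbrain had 1.17 (1.11 to 1.23), against 1.30 (1.25 to 1.35) in limb. Its side ratio was higher by 0.21 (0.06 to 0.36), with 33 of 180 bins higher still. Its contact with the Shh promoter was 3.37, against 4.27 in wild type limb (-0.34, -0.78 to 0.10), and with the ZRS window 0.614, against 0.662 in wild type limb (-0.11, -0.33 to 0.12), both within counting error. Averaged over the 92 bins of the Shh domain it was 1.13 in midbrain and 1.02 in limb (0.15, 0.04 to 0.26), and as a share of the bin's whole signal, pairs closer than 20 kb included, this difference was -0.0073 (-0.09 to 0.07). Of 170 partner bins with at least 20 contacts in each map, counted for the 3-bin strip of the viewpoint and its neighbours, 2 were at least 1.5-fold higher and 0 at least 1.5-fold lower in midbrain. The shares over all strips of the region were 2.18% and 2.96%, so the Lmbr1 strip had no more such bins than the region at large.

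ES cells differed from wild type limb at some of the named partners. Over the 92 bins of the Shh domain their intervals overlapped, with 0.984 (0.924 to 1.05) in ES cells and 1.02 (0.967 to 1.07) in limb. The side ratio of ES cells was higher by 0.11 (-0.04 to 0.25), within counting error. The bin 100 kb above the viewpoint (29800001 to 29810000) stood at 1.67 (1.41 to 1.95, 150 contacts) in ES cells and at 1.01 (0.819 to 1.24, 95 contacts) in wild type limb, a log2 ratio of 0.72 (0.34 to 1.10). With the neighbour towards Nom1 as the viewpoint it was 1.58 in ES cells and 0.790 in limb (1.00, 0.74 to 1.26), whereas the neighbour towards Shh gave 0.711 in ES cells and 0.637 in limb (0.16, -0.28 to 0.60). The added contact was therefore seen from the 2 bins on the Nom1 side of the strip. The upper plateau was lower, 1.34 in ES cells against 1.63 in limb (-0.28, -0.40 to -0.16). At 20 to 500 kb towards Nom1 and Mnx1 ES cells had 1.08 (1.03 to 1.13), against 1.30 (1.25 to 1.35) in limb. The contact with the Shh promoter, 4.81 in ES cells and 4.27 in limb, differed by 0.17 (-0.24 to 0.58). That difference has no settled sign, since it was -0.11 (-0.52 to 0.29) without balancing and -0.42 (-0.83 to -0.01) as a share of the bin's whole signal.

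The lowest stretch of the ES cell strip relative to limb was centred 430 kb above the viewpoint (30130001 to 30140000), at 0.678 in ES cells and 1.254 in limb (log2 ratio -0.89, -1.19 to -0.59). The lowest on the Shh side was centred 500 kb away (29200001 to 29210000), at 0.602 in ES cells and 0.966 in limb (-0.68, -0.93 to -0.43). Of 170 partner bins, 4 (2.35%) were at least 1.5-fold higher in ES cells, against 4.56% of all strips, and 19 (11.2%) at least 1.5-fold lower, against 10.54%. The share of lower bins thus lies near that of the whole region, and the share of higher bins under it.

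The limb CTCF deletions were set against wild type limb, which serves as the control map of all 7 limb-based comparisons. In each of the 3 maps that lack i4 and i5 the Lmbr1 bin had more contact with the Shh domain and less with the Nom1 and Mnx1 side. Over the 92 bins of the Shh domain contact was 1.20 with the i4i5 deletion, 1.34 with i4i5ZRS and 1.24 with i4i5ZRSreg, against 1.02 in wild type limb, with log2 ratios of 0.24 (0.12 to 0.36), 0.40 (0.29 to 0.50) and 0.29 (0.19 to 0.38). It was higher than in wild type at 65, 72 and 72 of the 92 bins. Over the 49 bins of the other side it was 1.155 with the i4i5 deletion, 1.181 with i4i5ZRS and 1.169 with i4i5ZRSreg, against 1.30 in wild type limb, with log2 ratios of -0.17 (-0.28 to -0.06), -0.14 (-0.23 to -0.04) and -0.15 (-0.24 to -0.06). The second of these was 0.048, of the opposite sign, in counts without balancing. With the median in place of the mean as the expected value, the domain ratio of limb i4i5 was 0.12 (-0.0013 to 0.25), within counting error of 0. The SD over the 92 domain bins, 1.01 in limb i4i5ZRS and 0.691 in wild type limb, was larger than the difference between their means.

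The side ratio of the Lmbr1 bin was higher than in wild type limb by 0.46 (0.29 to 0.63) with i4i5 deleted, by 0.55 (0.41 to 0.70) with i4i5ZRS and by 0.47 (0.33 to 0.60) with i4i5ZRSreg. At 180 bins across the region the median of the same difference was 0.02, 0.03 and 0.01, and 6, 3 and 7 bins had a larger one. The largest lay 20, 30 and 10 kb above the Lmbr1 bin in the 3 maps. The neighbour towards Nom1 had the larger shift, 0.68, 0.62 and 0.73, and the neighbour towards Shh the smaller, 0.16, 0.33 and 0.37.

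Single partners behaved less evenly among the 3 maps. Contact with the Shh promoter differed from wild type limb by a log2 ratio of 0.24 (-0.20 to 0.67) with i4i5 deleted, 0.57 (0.21 to 0.93) with i4i5ZRS and 0.25 (-0.09 to 0.60) with i4i5ZRSreg. In limb i4i5ZRS it was also higher from the neighbour towards Nom1, at 6.08 against 3.28 in wild type limb (0.89, 0.62 to 1.16), and not from the neighbour towards Shh, at 4.24 against 4.42 in wild type limb (-0.06, -0.39 to 0.26). Contact with the ZRS window was higher by 0.37 (0.11 to 0.61) in limb i4i5 and by 0.37 (0.17 to 0.58) in limb i4i5ZRS, with 0.04 (-0.18 to 0.25) in limb i4i5ZRSreg. The bin 180 kb towards Shh, picked after its values were seen, stood at 1.89 with the i4i5 deletion, 1.76 with i4i5ZRS and 1.55 with i4i5ZRSreg, against 1.18 in wild type limb.

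The largest change of the strip in limb i4i5ZRS, averaged over 3 partner bins, was centred 210 kb towards Shh (29490001 to 29500000), at 0.9696 against 0.573 in wild type limb (0.76, 0.49 to 1.03). The same stretch led in limb i4i5ZRSreg, at 0.877 against 0.573 in wild type limb (0.62, 0.34 to 0.89). In limb i4i5 the stretch 260 kb towards Shh (29440001 to 29450000) led, at 0.885 against 0.614 in wild type limb (0.53, 0.24 to 0.81). The lowest stretch lay 280 kb above the viewpoint (29980001 to 29990000) in limb i4i5ZRSreg, at 1.41 against 1.81 in wild type limb (-0.36, -0.50 to -0.22). A second stretch of limb i4i5, 720 kb towards Shh (28980001 to 28990000), stood at 1.32 against 0.922 in wild type limb (0.51, 0.17 to 0.85) and cannot be ordered against its first.

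Counts of single bins past 1.5-fold were set beside the share over all strips of the region. In limb i4i5 5 of 161 partner bins were at least 1.5-fold higher (6.39% over all strips) and 3 at least 1.5-fold lower (1.91%). In limb i4i5ZRS 13 of 171 (7.60%) were higher, against 4.51%, and 1 was lower, against 1.61%. In limb i4i5ZRSreg 5 of 171 were higher, against 4.03%, and 2 lower, against 1.29%. Read against the region, limb i4i5ZRS alone has a share of higher bins above the background, and the 2 other maps are under it. The shares of lower bins were under the background in all 3 maps. Of the 5, 13 and 5 higher bins 5, 12 and 5 lay on the Shh side, and all 3 bins lower in limb i4i5 lay on the Nom1 and Mnx1 side. No share by side over all strips stands beside this split, so it describes these bins only.

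In midbrain the i4i5ZRS deletion was set against wild type midbrain, a pair that shares no map with the limb mutants. The Lmbr1 bin met the Shh promoter at 7.15 in midbrain i4i5ZRS and 3.37 in wild type midbrain, a log2 ratio of 1.08 (0.66 to 1.52). From the neighbour towards Nom1 the values were 5.73 and 3.34 (0.78, 0.48 to 1.08), and from the neighbour towards Shh 4.51 and 4.45 (0.02, -0.32 to 0.36). Over all 3 bins the ratio was 0.64 (0.44 to 0.85). As in limb i4i5ZRS, the higher contact with the Shh promoter was measured at the Lmbr1 bin and the bin above it, and its difference from the limb effect was not tested.

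Midbrain i4i5ZRS also had more contact with the Shh domain as a whole, 1.499 against 1.13 in wild type midbrain (0.41, 0.30 to 0.52, higher at 74 of 92 bins), and with the ZRS window, 0.741 against 0.614 in wild type midbrain (0.27, 0.04 to 0.51). The side towards Nom1 and Mnx1 had 1.05 in midbrain i4i5ZRS and 1.17 in wild type midbrain (-0.16, -0.27 to -0.05), with -0.023 in counts without balancing. The side ratio was higher by 0.63 (0.47 to 0.78), which was the highest difference of the 180 bins compared. The leading stretches of the strip were centred 110 kb (29590001 to 29600000) and 180 kb (29520001 to 29530000) towards Shh, at 0.870 and 1.145 in midbrain i4i5ZRS against 0.529 and 0.699 in wild type midbrain. Of 170 partner bins 15 (8.82%) were at least 1.5-fold higher, against 4.15% over all strips. Of these, 14 lay on the Shh side, a split with no share by side over all strips beside it. In the other direction 0 were lower, against 2.32%.

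Beyond the lower border, over the 96 bins from 950 to 1900 kb away, the Lmbr1 bin had less observed over expected contact in all 4 maps without i4 and i5. It had 1.12 in limb i4i5 (log2 ratio -0.30, -0.47 to -0.14), 1.21 in limb i4i5ZRS (-0.19, -0.33 to -0.04) and 1.16 in limb i4i5ZRSreg (-0.25, -0.37 to -0.12), against 1.38 in wild type limb. Midbrain i4i5ZRS had 1.23 and wild type midbrain 1.64 (-0.42, -0.56 to -0.27). As a share of the bin's balanced signal at 20 kb or more, the lower border and the bins below it took 15.0% (13.9% to 16.3%) with i4i5 deleted in limb, 12.4% (11.6% to 13.3%) with i4i5ZRS and 14.3% (13.6% to 15.1%) with i4i5ZRSreg, against 15.1% (14.3% to 15.9%) in wild type limb. On that scale limb i4i5 and limb i4i5ZRSreg overlapped wild type limb in their intervals. The share was 13.1% (12.3% to 14.0%) in midbrain i4i5ZRS, against 17.7% (16.7% to 18.7%) in wild type midbrain, a gap in the same direction as the ratio. Between the wild types contact beyond the border was 1.64 in midbrain (0.25, 0.12 to 0.38) and 1.68 in ES cells (0.28, 0.16 to 0.41), against 1.38 in limb. The share of ES cells went the opposite way, 13.1% (12.3% to 13.9%) against 15.1% in limb, so their direction depends on the scale. In limb ZRSreg (0.02, -0.11 to 0.14) and the Lmbr1 promoter deletion (-0.04, -0.16 to 0.09) the ratio to wild type limb was within counting error. This window was not recomputed under the other settings.

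**Figure D4:**
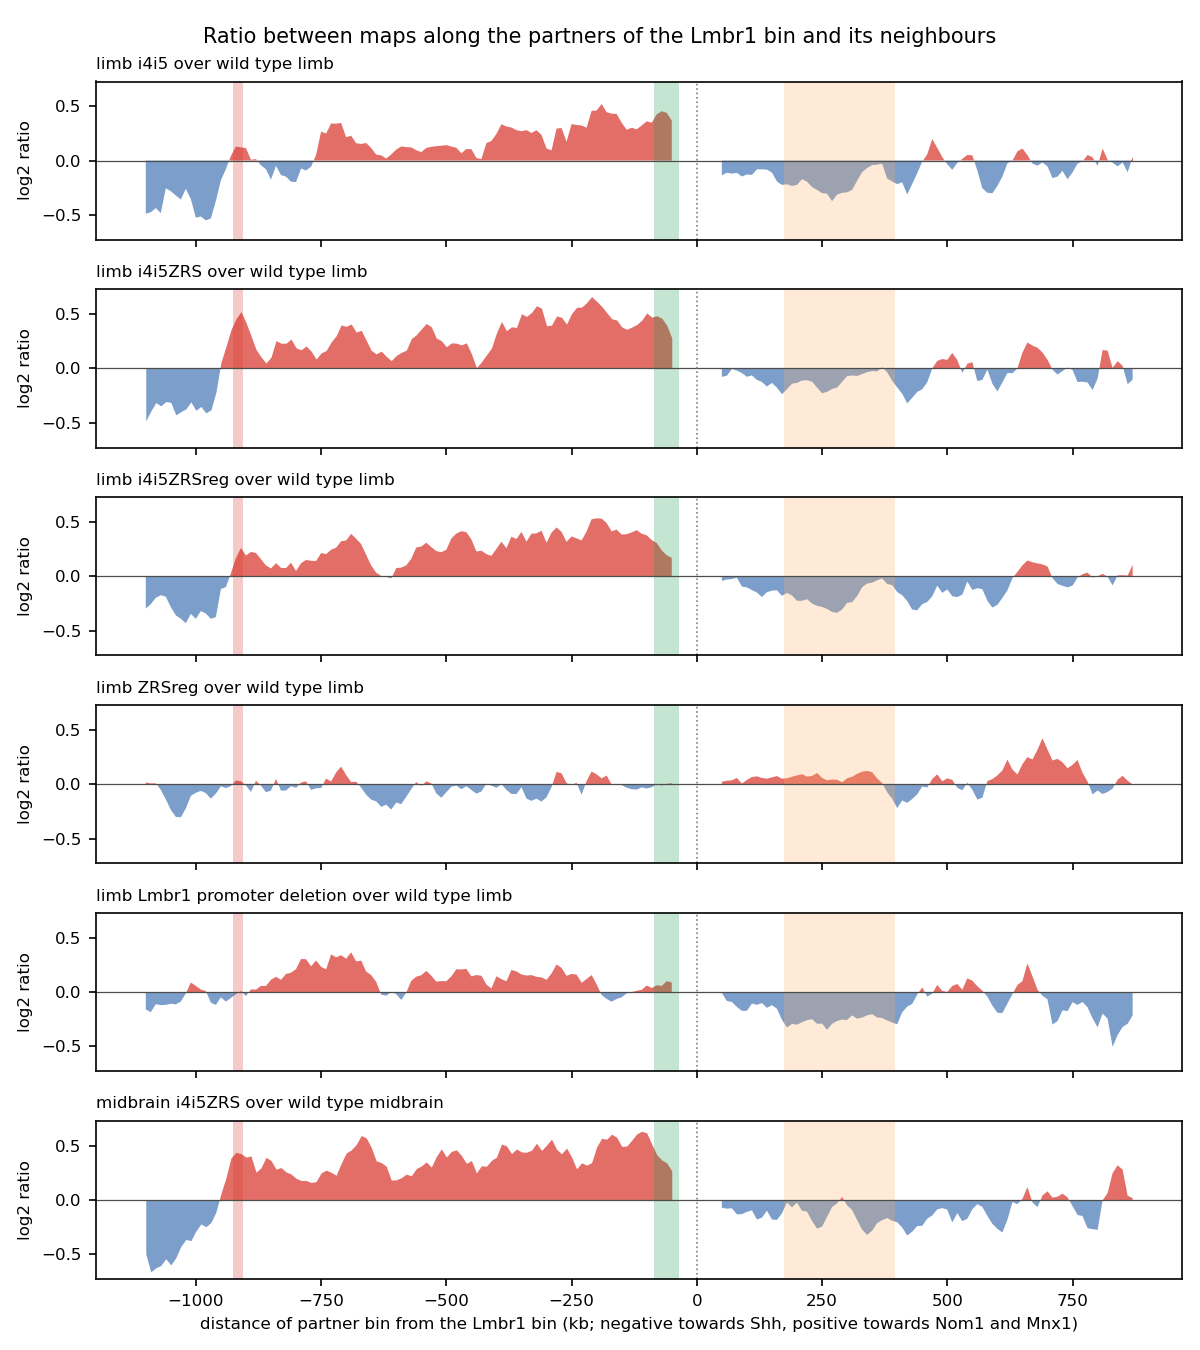
Log2 ratio between maps (y axis) of the contact of the Lmbr1 bin and its 2 neighbours with bins 50 kb or more away (x axis, kb, negative towards Shh), averaged over 5 partner bins, for the 6 mutant maps over wild type of the same tissue. Red is higher and blue lower in the mutant; bands mark the Shh promoter bins (pink), the ZRS window (green) and the upper plateau (orange). The maps without i4 and i5 are mostly red along the Shh domain and blue on the plateau and below the lower border on this scale, as for limb i4i5ZRS with 0.40 over the domain.

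At the Lmbr1 bin, limb ZRSreg differed from wild type limb by less than the counting error for the 4 windows given next. The Shh promoter had 4.13 in limb ZRSreg and 4.27 in wild type limb (-0.05, -0.43 to 0.34), the ZRS window 0.658 and 0.662 (-0.01, -0.22 to 0.20), the Shh domain 1.05 and 1.02 (0.04, -0.06 to 0.15) and the upper side 1.36 and 1.30 (0.07, -0.02 to 0.15). Whether the ZRSreg deletion falls in the ZRS window could not be checked, since its ends are not known here. The value of that window therefore does not show contact with the deleted element. Without balancing, the Shh domain ratio was 0.11 (0.02 to 0.20) and the upper side ratio 0.13 (0.05 to 0.20), both past the counting error, while as a share of the bin's whole signal both were under 0 and within it. The side ratios of -0.90 and -0.84 differed by -0.06 (-0.20 to 0.08). These intervals bound any difference in these merged maps and leave the spread between embryos out. Of 172 partner bins 1 was at least 1.5-fold higher, against 1.16% over all strips, and 0 were lower, against 1.35%. The strongest stretch lay 700 kb above the viewpoint (30400001 to 30410000), at 1.76 in limb ZRSreg and 1.29 in wild type limb (0.45, 0.13 to 0.77). From the neighbour towards Nom1 the bin 100 kb above the viewpoint also differed, at 1.05 in limb ZRSreg and 0.790 in wild type limb (0.41, 0.11 to 0.70). Limb ZRSreg is the one limb map of strain G4 that keeps i4, i5 and the Lmbr1 promoter, and with it as the control the i4i5, i4i5ZRS and i4i5ZRSreg domain ratios were 0.19, 0.35 and 0.24.

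In the Lmbr1 promoter deletion the viewpoint is named for the deleted element, whose ends are not known here, so its coverage was read first. The Lmbr1 bin took 9.22% of the unbalanced contacts of the 7 bins centred on it, the lowest of the 9 maps, against 10.6% in wild type limb and 9.91% to 11.7% elsewhere. It still had 10614 contacts there. Contact with the Nom1 and Mnx1 side was 1.09 in the Lmbr1 promoter deletion and 1.30 in wild type limb (-0.25, -0.34 to -0.16), and with the plateau 1.31 and 1.63 (-0.32, -0.44 to -0.19, lower at 18 of the 22 bins). The same plateau was lower from both neighbours, at 1.77 against 2.11 in wild type limb from the Nom1 side (-0.25, -0.32 to -0.19) and 1.11 against 1.29 in wild type limb from the Shh side (-0.22, -0.33 to -0.12).

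Towards Shh, the Shh promoter had 3.50 in the Lmbr1 promoter deletion and 4.27 in wild type limb (-0.29, -0.69 to 0.11; -0.47, -0.86 to -0.08, without balancing), and the ZRS window 0.673 and 0.662 (0.02, -0.18 to 0.23). The Shh domain had 1.13 in the deletion and 1.02 in wild type limb (0.15, 0.04 to 0.25), a difference that was -0.046 in counts without balancing and -0.039 as a share of the bin's whole signal, pairs closer than 20 kb included. The bin 100 kb above was lower, at 0.607 (0.448 to 0.805, 48 contacts) against 1.01 in wild type limb (-0.74, -1.27 to -0.22), but not from either neighbour, at 0.812 against 0.790 and at 0.807 against 0.637 in wild type limb. The side ratio was higher by 0.37 (0.22 to 0.51), with 2 of 180 bins higher still. Of 172 partner bins 3 were at least 1.5-fold higher, against 1.34% over all strips, and 1 was lower, against 1.38%.

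The share of the bin's signal gives the same contacts on another scale. Of its balanced signal at 20 kb or more, the Lmbr1 bin spent 41.9% (40.2% to 43.5%) inside the Shh domain with i4i5 deleted in limb, 44.2% (43.0% to 45.5%) with i4i5ZRS and 41.8% (40.7% to 42.9%) with i4i5ZRSreg. The share was 35.8% (34.7% to 36.9%) in limb ZRSreg and 39.9% (38.8% to 41.1%) in the Lmbr1 promoter deletion, against 36.1% (35.1% to 37.2%) in wild type limb. Midbrain i4i5ZRS had 47.1% (45.8% to 48.3%), against 37.3% (36.0% to 38.5%) in wild type midbrain, and ES cells 38.0% (36.9% to 39.2%). Intervals for these shares are Wilson intervals. The pairs at 20 kb or more held 71.9% of the bin's whole signal in the Lmbr1 promoter deletion and 72.4% in ES cells. They held 78.7% in wild type midbrain and 81.6% in wild type limb. In all but the last the domain share was thus above that of wild type limb with this denominator, and not with the whole signal. The 4 mutants without i4 and i5 had the 4 highest shares, while limb ZRSreg and wild type limb, with 48.7% and 48.8% on the Nom1 and Mnx1 side, had the lowest.

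The Lmbr1 bin was a low point of contact across it in all maps. Insulation compares, as a log2 ratio, the signal between the 10 bins before and the 10 bins after a position with the map's mean of that signal. It was -0.52 for limb i4i5, -0.62 for i4i5ZRS, -0.62 for i4i5ZRSreg, -0.82 for ZRSreg and -0.59 in the Lmbr1 promoter deletion. It was -0.56 in midbrain i4i5ZRS, -0.68 in wild type midbrain, -0.75 in ES cells and -0.78 in wild type limb. Lower values mean fewer contacts across the bin. Each map without i4 and i5 and the promoter deletion had a higher value than wild type of its tissue, and limb ZRSreg a lower one, with no error to set beside these differences. The lowest point within 100 kb was the Lmbr1 bin itself in 6 maps and lay 20 kb towards Shh in the Lmbr1 promoter deletion, wild type midbrain and ES cells. With squares of 5 bins the lowest point of limb i4i5 lay 10 kb towards Nom1 and those of the other maps stayed in place. At most 13 of 260 bins had a lower value in any map.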

How the data were processed

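Capture Hi-C was made from fixed, DpnII-cut nuclei with custom SureSelect probes, per the labels' protocols. Reads went through Juicer, SAMtools, Bowtie2 2.3.4.1 and cutadapt, with mm9 as the build, per the submitters' processing notes, which give no order. Each deposited file lists the signal between 10 kb bins, KR-balanced by the authors from read pairs merged over each group's samples (MAPQ 30), per the names of the deposited files. Unlisted pairs were taken as 0. Bin totals were equal within a map and differed between maps, so each map was scaled by its own mean at each separation. The Lmbr1 bin, its partners and the windows were chosen with earlier results of these data known. Partners named beside the windows are the highest bin of each side and the highest and lowest stretches of each comparison, of which a selection is printed.

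Contact counts were recovered as the whole numbers behind the balanced signal, 100% of them within 0.01. Intervals at 95% are exact Poisson for a contact and conditional binomial for a ratio, on contacts weighted for balancing. Those for a difference of side ratios between maps use a normal approximation on the same contacts. Read pairs carry no molecular identifiers, so copies of a molecule may count more than once. Counts past 1.5-fold used up to 174 partner bins per strip 30 to 890 kb away, with at least 20 contacts in each map. The Lmbr1 strip has this range in full on both sides. Strips near the ends of the region, which the shares over all strips include, do not. The plateau, the step of the side ratio, the bin 180 kb towards Shh, shares and coverage were added after the data were seen. Python 3, numpy and scipy were used, and ratios and count recovery were tested on simulated maps. With 1 merged map per group there is no test.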

Additional observations from a re-analysis of the deposited data

How the results depend on the processing

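No paired analysis was possible because samples were merged before deposit, and for the same reason no replicate could be left out. Of 200 values recomputed under another setting, 153 stayed within their counting interval (for counts of bins, within 1.5 times), 43 moved and 4 reversed. Reversed means that a value whose interval excluded 0 changed sign. Values within counting error of 0 are not counted so, and among these sign changes were also seen for the side ratio of midbrain i4i5ZRS, the Shh promoter ratios of limb i4i5, limb ZRSreg, the Lmbr1 promoter deletion and ES cells, and the domain and upper side ratios of limb ZRSreg. Insulation is not among the 200, and with squares of 5 bins it moved by more than its spread over the 3 viewpoint bins in 4 of 9 maps. The causes were not tested. Contact counts without balancing reversed the Shh domain ratio of the Lmbr1 promoter deletion to -0.046 and the upper side ratio of limb i4i5ZRS to 0.048. The share of the bin's whole signal, pairs closer than 20 kb included, reversed the Shh domain ratio of the Lmbr1 promoter deletion to -0.039 and of wild type midbrain to -0.0073. Without balancing, the side ratio moved to -0.78 in limb ZRSreg, -0.36 in the Lmbr1 promoter deletion, 0.16 in midbrain i4i5ZRS and -0.46 in wild type midbrain. The domain ratio moved to 0.53 in limb i4i5ZRS, 0.53 in midbrain i4i5ZRS and -0.29 in ES cells, and the upper side ratio to -0.45 in the Lmbr1 promoter deletion, -0.023 in midbrain i4i5ZRS and -0.54 in ES cells. With separations of 50 to 300 kb the side ratio was -0.69 in the Lmbr1 promoter deletion, -0.29 in midbrain i4i5ZRS, -0.87 in ES cells and -0.99 in wild type limb, and the upper side ratio -0.29 in limb i4i5, -0.054 in midbrain i4i5ZRS and -0.15 in ES cells. As that share, the domain ratio of limb i4i5ZRS was 0.23, its upper side ratio -0.28, the upper side ratio of limb ZRSreg -0.044 and of ES cells -0.11, and the Shh promoter ratio of ES cells -0.42. The domain window of 50 to 750 kb gave -0.24 in ES cells. With the main Shh promoter bin alone the Shh promoter ratio was 0.70 in limb i4i5ZRSreg and 1.68 in midbrain i4i5ZRS, and with both neighbours it was 0.64 in the last. At 2-fold, 1 partner bin was higher in limb i4i5ZRS, 1 was higher and 2 were lower in ES cells, and 0 passed in the other maps. With no minimum of contacts 5 bins were lower with i4i5 deleted, 3 with i4i5ZRS, 1 with ZRSreg and 2 in the Lmbr1 promoter deletion. No share over all strips at these settings stands beside the 2-fold and no-minimum counts, so they describe the Lmbr1 strip only. The median expected value and limb ZRSreg as the control moved none of the ratios and side ratios they were applied to. Single bins beyond 600 kb rest on few contacts and cannot be ordered.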
